A study of Mus musculus with 72 samples.

Results

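The endothelial and pericyte genes described here are *Cldn5*, *Pecam1*, *Flt1*, *Kdr*, *Slc2a1*, *Abcb1a*, *Tek*, *Cdh5*, *Pdgfrb* and *Esam*, 10 of the 18194 genes that the arrays represented by a probe set of 1 symbol. They were chosen by name as genes known from the vessel wall, with earlier results of these data known, and all of their 18 probe sets were taken from the 45101 on the array. *Flt1* had 4 probe sets, *Slc2a1* 3, *Abcb1a*, *Cdh5* and *Pdgfrb* 2 each, and the other 5 genes 1 each. Total RNA was taken from 3 brain regions (cerebral cortex, cerebellum, hippocampus) of Ts1Cje mice and disomic littermates aged P1, P15, P30 or P84 (postnatal days; the youngest age is P1.5 in the methods). Ts1Cje mice carry an extra copy of the part of mouse chromosome 16 (MMU16) from *Sod1* to *Znf295*, moved onto MMU12, and serve as a model of Down syndrome. They came from Ts1Cje males mated with C57BL/6 females, the disomic mice are labelled C57BL/6, and no mouse received a treatment. Each of the 24 groups (2 genotypes, 3 regions, 4 ages) held 3 arrays, 72 in all, and every mouse is labelled female. The expression values are on the log2 scale, as the authors computed them with gcRMA, so that a difference of 1 is a 2-fold change, and a level can be compared between arrays for 1 probe set but not between probe sets.

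Brain vessels are lined by endothelial cells whose tight junctions, efflux pumps and nutrient carriers form the blood-brain barrier. Pericytes sit on the outer face of the capillaries and are recruited by PDGF-B from the endothelium, which binds their receptor Pdgfrb. Growth of the vessels is driven by VEGF-A through its receptor Kdr (VEGFR2), while Flt1 (VEGFR1) binds the same ligand tightly and can act as a decoy. Tek (Tie2) is the endothelial receptor for the angiopoietins. In rodents the cortical capillary network expands strongly during the first weeks after birth, and the pial meninges that cover the brain are themselves rich in vessels. In RNA of whole tissue, fewer cells of a type and less RNA per cell cannot be told apart.

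Several arrays stood apart and were examined before the results were read. The upper quartile of the values was 5.65 to 5.93 on all arrays except 3 dim disomic replicate 3 arrays, with 5.23 in the cerebral cortex at P84, 5.51 in the hippocampus at P84 and 4.97 in the cerebellum at P1. Region identity was read on an axis with the hippocampus at 0 and the cerebellum at 1. Of the P15 disomic replicate 3 arrays, that of the labelled cerebellum had a value of -0.02 and that of the labelled hippocampus 1.02. The other P15 arrays lay at 1.03 to 1.05 and at -0.05 to -0.02, so the labels of this pair looked exchanged, and the age, region and genotype fits were repeated without it. On 69 of the 72 arrays the value of *Xist* was lower than that of *Eif2s3y*, a gene of the Y chromosome. This puts the female label in doubt but does not settle it, as levels are not comparable between probe sets. The mean of 38 expressed genes of the triplicated segment separated the genotypes as labelled in 12 of 12 comparisons, by 0.59 to 0.88 log2. No array repeated another, as the highest correlation between 2 arrays was 0.996.

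None of the 10 genes lies in the triplicated segment. *Cldn5* is on MMU16 but proximal to *Sod1*, outside the extra copy, and the others are on MMU4, MMU5, MMU8, MMU9, MMU11 and MMU18. The 10 genes differed in how far they stood above the low end of the array. *Slc2a1*, which encodes the endothelial glucose carrier GLUT1, *Pdgfrb*, *Cldn5*, the main tight junction claudin of brain endothelium, *Esam*, an adhesion molecule of endothelial junctions, *Abcb1a*, the efflux pump P-glycoprotein, *Tek* and *Flt1* each had a probe set above its arrays' median in all 24 groups. *Cdh5*, the VE-cadherin of endothelial adherens junctions, lay below the array median in 24 of 24 groups with both of its probe sets, and *Pecam1*, an endothelial adhesion molecule also known as CD31, in 22 of 24. *Kdr* lay below it in 17 groups. A group mean below the array median was not shown to be above background, so the defining marker *Cdh5* could not be used to check the vessel content of these samples, and the small changes of these 3 genes may be understated. For 1 value per gene the probe set with the highest mean was used, which was 1417839_at for *Cldn5*, 1421287_a_at for *Pecam1*, 1451756_at for *Flt1*, 1449379_at for *Kdr*, 1434773_a_at for *Slc2a1*, 1419759_at for *Abcb1a*, 1418788_at for *Tek*, 1433956_at for *Cdh5*, 1436970_a_at for *Pdgfrb* and 1460356_at for *Esam*.

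RefSeq promoter sequences, 250 bases up to the annotated transcription start in build GRCm38.p6, were at hand for 6 of the 10 genes (*Cldn5*, *Flt1*, *Kdr*, *Slc2a1*, *Abcb1a* and *Tek*). Those of *Abcb1a*, *Flt1* and *Slc2a1* are shown because these are the genes that rose with age in all 3 regions, and that of *Cldn5* because it varied most between the arrays of the P1 cerebral cortex. Each is written in the direction of transcription, 5′ to 3′. Capitals mark matches, on either strand, to the GC box GGGCGG, the hypoxia response core ACGTG, the forkhead motif GTAAACA, the TATA box TATAAA and the ETS cores CCGGAA and CAGGAA, none of which overlapped another.
Abcb1a, chr5:8566841-8567090, plus strand: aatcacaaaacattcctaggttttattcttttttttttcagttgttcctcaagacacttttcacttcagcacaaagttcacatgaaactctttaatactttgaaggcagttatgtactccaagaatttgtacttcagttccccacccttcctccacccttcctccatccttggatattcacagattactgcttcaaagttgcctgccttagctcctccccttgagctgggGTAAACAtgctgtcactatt
Flt1, chr5:147726012-147726261, minus strand: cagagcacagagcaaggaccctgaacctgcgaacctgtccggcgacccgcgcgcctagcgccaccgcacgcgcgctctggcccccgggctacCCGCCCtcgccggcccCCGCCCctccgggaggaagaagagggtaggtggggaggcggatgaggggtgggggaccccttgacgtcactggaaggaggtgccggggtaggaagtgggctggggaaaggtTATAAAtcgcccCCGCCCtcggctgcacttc
Slc2a1, chr4:119108495-119108744, plus strand: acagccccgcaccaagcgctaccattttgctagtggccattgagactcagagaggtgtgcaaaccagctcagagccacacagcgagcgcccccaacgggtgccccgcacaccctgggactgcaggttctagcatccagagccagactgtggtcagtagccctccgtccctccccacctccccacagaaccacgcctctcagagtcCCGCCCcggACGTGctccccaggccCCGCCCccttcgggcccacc
Cldn5, chr16:18776597-18776846, plus strand: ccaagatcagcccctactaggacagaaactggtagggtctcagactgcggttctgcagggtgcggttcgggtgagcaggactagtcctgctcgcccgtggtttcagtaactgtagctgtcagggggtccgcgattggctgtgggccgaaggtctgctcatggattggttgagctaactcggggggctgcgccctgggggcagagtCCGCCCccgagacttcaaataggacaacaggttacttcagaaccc
*Flt1* held 3 GC boxes and a TATA box, *Slc2a1* 2 GC boxes and 1 hypoxia response core, *Cldn5* 1 GC box, and *Abcb1a* 1 forkhead motif and no GC box. Of all 32851 promoters of this length, 32.7% held a GC box, 16.6% the hypoxia response core, 3.2% the forkhead motif, 12.4% the TATA box, 12% CCGGAA and 25.7% CAGGAA. The 3 genes that rose together shared no motif among these 6, and their GC content was 40.4% for *Abcb1a*, 70.4% for *Flt1* and 66.4% for *Slc2a1*, against a median of 52.4% over all promoters. Such matches describe the letters only.

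The first question was how the genes changed with age, which the design answers with 6 arrays (both genotypes together) per region and age. Between P1 and P15 *Abcb1a*, *Flt1* and *Slc2a1* rose in the cerebral cortex, the cerebellum and the hippocampus, and *Tek* and *Pdgfrb* rose in the cerebral cortex. No member fell. A probe set was called where limma's t reached 4 in size and the p-value, adjusted by Benjamini-Hochberg across the whole array, was 0.05 or less, which are the DEG criteria of the study's methods. In the cerebral cortex 11 of the 18 probe sets (5 genes) met them as higher at P15, where 10.8% of all probe sets did. In the cerebellum 5 probe sets (3 genes) did, against 10.9% of all, and in the hippocampus 6 (3 genes), against 8.68%. The 10 genes had a median difference of 0.95 log2 in the cortex, while the cerebellum gave 0.53 and the hippocampus 0.45, where the medians of all genes were 0.02, -0.07 and -0.01.

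*Abcb1a*, the pump that returns lipophilic compounds to the blood, showed the largest rise of the 10 genes in each region. In the cerebral cortex its 6 P1 arrays ran from 3.18 over a median of 3.97 to 4.77 log2, and its 6 P15 arrays from 5.53 over 5.90 to 6.48. The ages did not overlap, and the difference was 1.98 ± 0.24 (SE, n = 6 per age, 3.95-fold, limma adjusted p = 6.32e-10). In the cerebellum the P1 arrays lay at 3.08 to 4.26 and the P15 arrays at 4.99 to 5.83, again apart, with a rise of 1.47 ± 0.24. In the hippocampus the ranges of 3.04 to 5.30 at P1 and 5.04 to 6.15 at P15 touched, and the rise was 1.44 ± 0.24. The second *Abcb1a* probe set gave 2.19, 1.58 and 1.63 in the same order of regions. It lost its call in the cerebellum without disomic replicate 3 (1.11) and in the hippocampus without disomic replicate 2 (1.33). For age and region steps, a replicate left out was removed for that genotype in every region and at every age, not as a single array.

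*Slc2a1*, which supplies the brain with glucose across the endothelium, rose by 1.34 ± 0.17 in the cerebral cortex (2.53-fold, limma adjusted p = 2.44e-09). Its cortical arrays lay at 8.37 to 8.97 (median 8.54) at P1 and at 9.55 to 10.08 (median 9.97) at P15, with no overlap. The other 2 probe sets rose by 1.59 and 1.35 there, the latter not called without Ts1Cje replicate 1 (1.27) or disomic replicate 3 (1.17). In the cerebellum the rise was 0.73 ± 0.17 and in the hippocampus 0.73 ± 0.17, and in both regions P1 and P15 arrays overlapped. The highest P15 cerebellum value, 9.81, and the lowest P15 hippocampus value, 8.77, belonged to the disomic replicate 3 pair whose labels looked exchanged. The cerebellar call was lost in 6 of 13 alternatives, not all of which are named here. Without that pair the cerebellar difference was 0.62 and no longer met the criterion on t. It also fell short without the 3 dim arrays (0.72), Ts1Cje replicate 1 (0.69) or 2 (0.64) or disomic replicate 3 (0.60), and the hippocampal one when Ts1Cje replicate 1 (0.72), Ts1Cje replicate 2 (0.56), disomic replicate 1 (0.75) or disomic replicate 2 (0.60) was left out. With any of these left out the adjusted p stayed under 0.05, between 0.0011 and 0.0185.

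*Flt1*, the VEGF receptor that can sequester the ligand, rose by 1.34 ± 0.19 in the cerebral cortex (2.53-fold, limma adjusted p = 7.03e-08). The rise was 0.89 ± 0.19 in the cerebellum and 1.17 ± 0.19 in the hippocampus (limma adjusted p = 0.000172 and 1.73e-06). The 6 cortical arrays lay at 3.24 to 3.56 (median 3.48) at P1 and at 4.46 to 5.31 (median 4.75) at P15. *Flt1* was the only one of the 10 genes whose P15 arrays lay above every P1 array in all 3 regions. Its P1 levels were close to the array median, so the rise may be understated. The other 3 probe sets rose by 0.99, 1.65 and 0.63 in the cerebral cortex, of which the last lay below the array median in all 24 groups. That last one lost its call in 6 of 12 alternatives, among them without any 1 of 5 replicates (Ts1Cje 2 or 3, disomic 1, 2 or 3, at 0.61 to 0.67). The cerebellar rise of *Flt1* was 0.78 without the pair of arrays that looked exchanged, 0.77 without Ts1Cje replicate 2 and 0.69 without disomic replicate 3, and missed the criterion on t in each case. A second probe set that was called there, 1440926_at (0.73), also missed it under these 3 settings, without the 3 dim arrays (0.72) and without disomic replicate 1 (0.76) or 2 (0.76).

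*Tek* rose by 1.22 ± 0.21 in the cerebral cortex (2.33-fold, limma adjusted p = 2.96e-06). Its P1 cortical arrays were spread from 2.39 over a median of 3.95 to 4.55, while those of P15 lay at 4.78 to 5.20. The differences of 0.55 in the cerebellum and 0.26 in the hippocampus did not meet the criteria (adjusted p = 0.0336 and 0.41). *Pdgfrb*, the pericyte receptor, rose by 1.05 ± 0.24 in the cerebral cortex (adjusted p = 0.000343), from 6.62 to 7.69 at P1 to 7.80 to 8.62 at P15. Its differences in the cerebellum and hippocampus were 0.45 and 0.63 (adjusted p = 0.15 and 0.0412). The cortical call of *Pdgfrb* was lost without Ts1Cje replicate 2 (1.12) or 3 (0.90) or disomic replicate 3 (0.94), and its second, dimmer probe set differed by 0.24 (adjusted p = 0.0828).

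The remaining 5 genes did not meet the criteria at this step in any region with all arrays as deposited. *Esam* came nearest, with 0.85 ± 0.22 for the cortex and 0.84 ± 0.22 for the cerebellum (limma adjusted p = 0.0015 and 0.00174), a little short of the t of 4. The cortical one met the criteria without Ts1Cje replicate 2 (1.11), without the 3 dim arrays (0.85) and after quantile normalization (0.89), and the cerebellar one after quantile normalization (0.77). *Kdr* differed by 0.67 (cortex, adjusted p = 0.00469), 0.49 (cerebellum) and 0.36 (hippocampus). *Cldn5* differed by 0.61, 0.51 and 0.17 (adjusted p = 0.101 to 0.751). Its P1 cortical arrays ran from 4.86 to 8.12 and its P15 ones from 6.84 to 7.40, so the P1 arrays reached both below and above all of P15. *Pecam1* and *Cdh5* differed by -0.09 to 0.24 in the 3 regions.

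**Figure D1:**
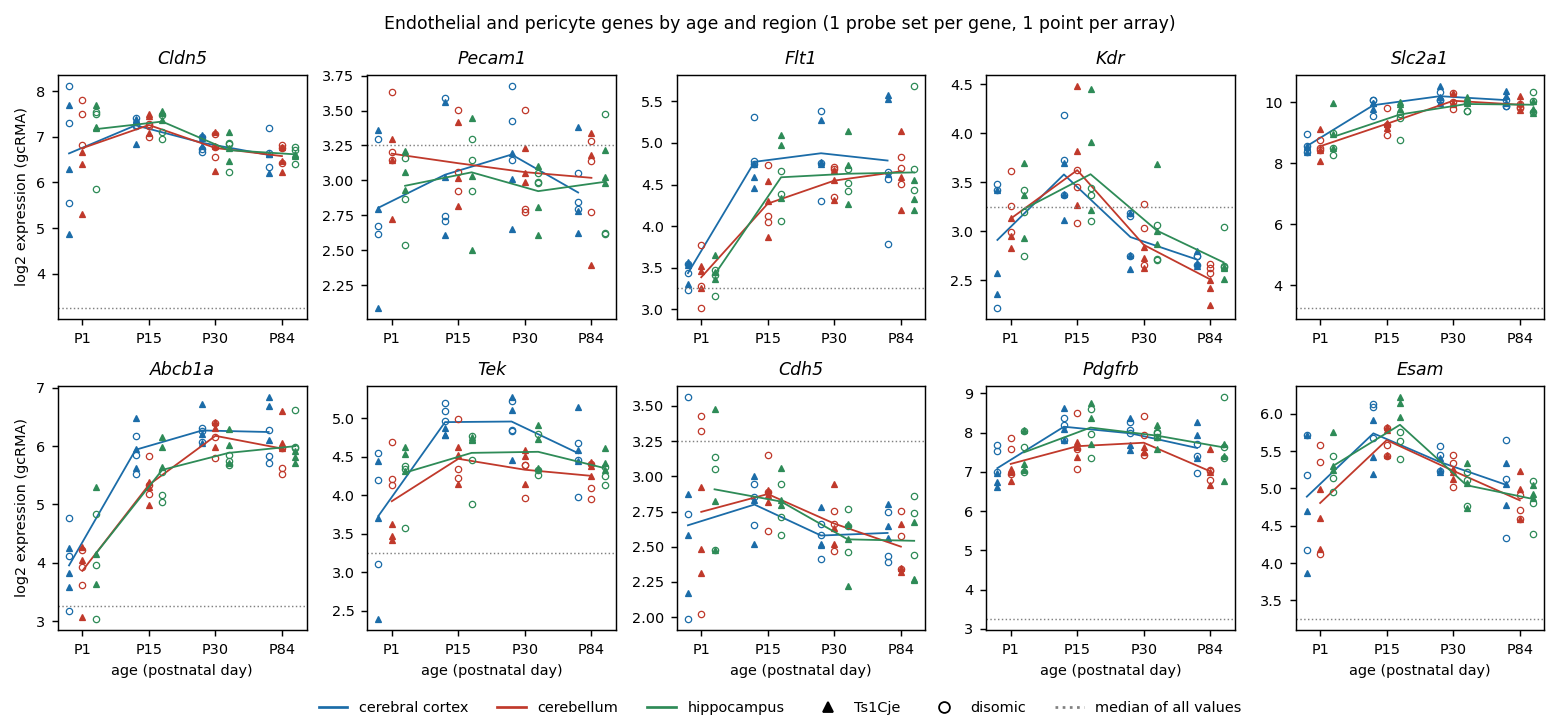
log2 expression of the 10 genes (y axis, gcRMA values, a scale of its own per gene) against age (x axis), 1 probe set per gene and 1 point per array, with triangles for Ts1Cje, open circles for disomic, colours for the regions and lines through the mean of the 6 arrays. *Abcb1a*, *Flt1* and *Slc2a1* climbed from P1 to P15 and stayed up, and *Cldn5* was spread most widely at P1. The mean of *Kdr* was highest at P15, but no step of *Kdr* met the DEG criteria with all arrays.

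Between P15 and P30 the differences of the 10 genes had both signs in each region, and no test compared 1 gene with another. Of the 10, only *Slc2a1* in the cerebellum met the criteria between P15 and P30, with 2 of 3 probe sets (0.76 ± 0.17 and 0.87 ± 0.21, limma adjusted p = 0.0013 and 0.00288), where 2.02% of all probe sets were higher. In the cerebral cortex and hippocampus 0 of 18 were called, with 1.67% and 1.75% of all. There 3 and 4 of the 18 had an unadjusted p under 0.05, as did 11.4% and 11.8% of all. The 6 cerebellar arrays of *Slc2a1* lay at 8.94 to 9.81 at P15 and at 9.77 to 10.29 at P30. The first probe set lost the call without Ts1Cje replicate 1 (0.72) or disomic replicate 2 (0.59), and the second without any 1 of the 3 Ts1Cje replicates or disomic replicates 1 and 2 (0.72 to 0.91). *Abcb1a* differed by 0.84 at the same step in the cerebellum (adjusted p = 0.0146), with a t of 3.52.

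*Kdr*, the main signalling receptor for VEGF-A, was lower at P30 than at P15 in all 3 regions, by amounts that did not meet the criteria. The differences were -0.76 ± 0.20 in the cerebellum (t = -3.87, limma adjusted p = 0.00626), -0.64 in the cortex (0.0647) and -0.58 for the hippocampus (0.113). The cerebellar one met them without Ts1Cje replicate 1 (-0.93) or disomic replicate 3 (-0.82). The 6 cerebellar arrays of *Kdr* ran from 3.09 to 4.49 at P15, from 2.63 to 3.28 at P30 and from 2.25 to 2.67 at P84, and the last lay below the array median throughout. *Esam* differed by -0.81 ± 0.22 in the hippocampus (adjusted p = 0.0273), from 5.40 to 6.23 at P15 to 4.73 to 5.34 at P30, and met the criteria without the 3 dim arrays (-0.81) or without disomic replicate 3 (-0.88). At the step from P30 to P84 no probe set of the 10 genes met them in any region, with 0.286% (cerebral cortex), 0.712% (cerebellum) and 0.313% (hippocampus) of all called. In the same order 0, 1 and 0 of the 18 had an unadjusted p under 0.05, as did 5.7%, 8.14% and 4.29% of all. The lowest adjusted p there was that of *Pdgfrb* in the cerebellum (-0.73, adjusted p = 0.202).

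**Figure D2:**
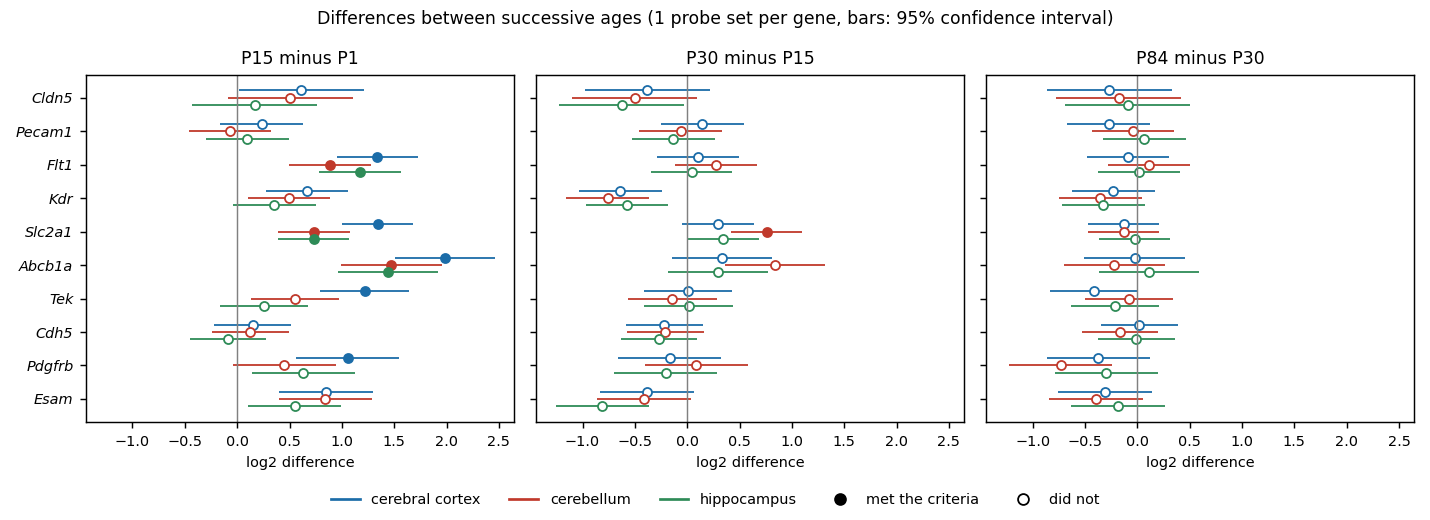
log2 difference between successive ages (x axis) for the 10 genes (y axis), as points with 95% confidence intervals from limma, 1 colour per region, filled where the DEG criteria were met. All filled points lie to the right of 0, with 11 at P15 minus P1 and 1, *Slc2a1* in the cerebellum, at P30 minus P15.

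The likeness of the genes over the 24 group means is given as a description over groups that share array type, ages and the mice of the 3 regions. *Slc2a1*, *Abcb1a* and *Flt1* ran together (Pearson r = 0.98 for *Slc2a1* with *Abcb1a*, 0.96 for *Flt1* with *Abcb1a* and 0.94 for *Flt1* with *Slc2a1*). *Kdr* ran with *Cldn5* (0.82) and *Esam* (0.82), and with *Abcb1a* and *Flt1* it had r of -0.19 and -0.08. *Tek* and *Pdgfrb* went with members of both sets (*Tek* at 0.70 with *Flt1* and 0.66 with *Esam*, *Pdgfrb* at 0.58 and 0.69), and *Pecam1* had at most 0.34 with any member. Without the pair of arrays that looked exchanged, the values of these pairs moved by little (0.98, 0.96 and 0.94 for the first 3). Probe sets of 1 gene ran together at 0.77 to 0.96 for *Flt1*, 0.94 to 0.99 for *Slc2a1* and 0.96 for *Abcb1a*, but those of *Cdh5*, both below the array median, at 0.06. Outside the gene lists, the genes most like the mean of the 10, among 7692 with a mean of at least 5, were *Igfbp7* (r = 0.87), which is secreted by vessel cells, *Ctsh* (0.83), *Oxct1* (0.81), *Grn* (0.80), *Apba1* (0.80), *Bcan* (0.78), *Gpr17* (0.78) and *Hspa8* (0.78). Each of the 10 genes was set against the mean of the other members, where *Tek* (0.85), *Pdgfrb* (0.82) and *Esam* (0.80) had the highest r. These r are not comparable with those of the outside genes.

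Other vessel genes were read from lists. Of 25 further endothelial genes measured, 10 (cortex), 8 (cerebellum) and 5 (hippocampus) rose from P1 to P15, and 0, 0 and 1 fell. Of all genes 15%, 12.9% and 12.2% rose and 15.5%, 14.7% and 13.5% fell. The cortical ones with the largest t were *Cd34* (2.91), a sialomucin of endothelial cells, *Ptprb* (2.50), the phosphatase that acts on Tek, and *Adgrl4* (1.88). Of 17 further barrier genes 8, 8 and 4 rose, led in every region by *Slco1a4*, a carrier of organic anions (3.87, 2.39 and 3.24 log2), while 0, 2 and 2 fell. Of 17 further genes of pericytes and smooth muscle, 5, 4 and 6 rose and 0, 1 and 0 fell, with *Rgs5*, a pericyte marker, higher by 1.78, 1.54 and 1.24 and *Notch3*, a receptor of mural cells, at -1.58 in the cerebellum. Of 20 genes of the VEGF, angiopoietin, Notch and PDGF pathways, a list that shares *Ptprb* and *Tie1* with the endothelial one, 4 rose in the cerebral cortex and 0 fell, 3 rose and 3 fell in the cerebellum, and 4 rose and 5 fell in the hippocampus. The ligand gene *Pdgfb* was among those that rose in the cerebral cortex (1.64) and hippocampus (1.53), and *Vegfa* rose in the cerebellum (1.34).

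Markers of other cell types moved at the same step and their part in the results was not tested. All 8 astrocyte markers rose in the cerebral cortex and all 8 in the hippocampus, and 5 rose and 1 fell in the cerebellum. Of 7 microglia markers the cortex had 7 that rose, the cerebellum 0 and the hippocampus 6. None of the 9 markers of meninges and fibroblasts was called in any region. The per-array mean of these 9 ranged from 2.74 to 6.02 in the cerebral cortex at P1 and from 4.82 to 5.17 at P15, so that the P1 arrays lay on both sides of all P15 arrays.

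The regions were compared over all 4 ages, 24 arrays each. Only *Abcb1a* met the criteria, with 1 of its 2 probe sets lower in the cerebellum than in the cerebral cortex (-0.70 ± 0.15, limma adjusted p = 1.00e-04), where 13.8% of all probe sets were called lower. The other *Abcb1a* probe set differed by -0.27 (adjusted p = 0.063). The call was lost without Ts1Cje replicate 1 (-0.69) or 2 (-0.70) or disomic replicate 2 (-0.68). Probe sets of *Flt1*, *Slc2a1*, *Tek* and *Pdgfrb* were also lower in the cerebellum than in the cerebral cortex (limma adjusted p = 0.0152 to 0.0361), but short of the t of 4. Of the 18, 9 had an unadjusted p under 0.05 there, as did 50.2% of all. No probe set met the criteria between hippocampus and cerebral cortex or between cerebellum and hippocampus. Of all, 9.39% and 26.8% were called. An unadjusted p under 0.05 was found for 0 and 4 of the 18, and for 25.8% and 48% of all. Between cerebellum and hippocampus *Abcb1a* (-0.49, limma adjusted p = 0.00563) and *Pdgfrb* (-0.39, 0.00734) missed only the criterion on t. Without the pair of P15 arrays that looked exchanged, the same probe sets of *Abcb1a* (-0.60) and *Pdgfrb* (-0.48) met the criteria as lower in the cerebellum than in the hippocampus (limma adjusted p = 0.000401 and 0.000604). These *Abcb1a* values are of probe set 1419758_at, not the one with the highest mean. With all arrays, the highest-mean set 1419759_at differed by -0.07 (limma adjusted p = 0.67). The second *Pdgfrb* probe set differed by -0.12 (limma adjusted p = 0.0785). Over the 10 genes the median difference between cerebellum and cerebral cortex was -0.18, with 8 lower and 2 higher.

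The genotype question was asked in 12 comparisons, Ts1Cje minus disomic in each region and age with 3 arrays against 3. No probe set of the 10 genes met the DEG criteria in any of them, in 216 tests by limma. Over all probe sets 0.075% did in the 12 comparisons together. From P1 to P84 in order these were 0.0111%, 0.00222%, 0.0133% and 0.0443% for the cortex. The cerebellum gave 0.494%, 0.0333%, 0.031% and 0.111%, and the hippocampus 0.0155%, 0.0554%, 0.0177% and 0.071%. An unadjusted p under 0.05 was found in 9 of the 216 tests, or 4.17%, where all probe sets gave 5.52%. The averages over the 4 ages called 0 of 18 in each region, against 0.202% (cortex), 0.231% (cerebellum), 0.193% (hippocampus) and 0.208% (together) of all. Their unadjusted p was under 0.05 for 0, 0 and 2 of the 18, and for 4.9%, 5.72% and 5.09% of all. With 3 arrays a group the 95% confidence interval of a gene's difference in 1 comparison reached about 0.5 log2 to either side for *Slc2a1* (-0.63 to 0.34 in the P1 cerebral cortex) and about 0.8 for *Cldn5* (-1.54 to 0.15 there). The criteria asked for a t of 4 in size, which takes a larger difference than these widths. Thus *Cldn5* at -1.25 in the P1 cerebellum was not called.

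The lowest adjusted p of any member belonged to *Cldn5* in the P1 cerebellum. Its Ts1Cje arrays were at 6.67, 6.40 and 5.30 and its disomic arrays at 7.81, 7.51 and 6.81, so each Ts1Cje array lay below each disomic one. The difference was -1.25 ± 0.42 (SE, n = 3 per genotype, limma adjusted p = 0.119). *Tek* was next, with Ts1Cje arrays at 3.46, 3.62 and 3.41 and disomic arrays at 4.69, 4.21 and 4.13, also without overlap, and a difference of -0.85 ± 0.30 (adjusted p = 0.134). Disomic replicate 3 is 1 of the 3 dim arrays. Without these arrays the differences were -1.54 and -0.95, with adjusted p of 0.41 and 0.563. Over all alternatives the limma adjusted p of *Cldn5* ran from 0.035 (with the replicate block; 0.0451 after quantile normalization) to 0.549, and that of *Tek* from 0.0522 to 0.626, and neither gene met the DEG criteria under any of them. In this comparison 9 of the 10 genes were lower in Ts1Cje, with a median of -0.33 against 0.05 for all genes. The mean of the meninges and fibroblast markers was 5.65, 4.48 and 6.39 on the Ts1Cje arrays and 6.24, 6.61 and 5.28 on the disomic arrays, and its part in the difference was not tested.

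In the P84 cerebral cortex *Flt1* was at 4.62, 5.53 and 5.58 in Ts1Cje and at 4.57, 4.65 and 3.78 in disomic mice. The difference was 0.91 ± 0.27 (limma adjusted p = 0.375), and 0.64 without the dim array, which gave the lowest value. At the same age in the hippocampus *Flt1* was at 4.56, 4.32 and 4.19 in Ts1Cje and at 4.68, 5.69 and 4.43 in disomic mice, a difference of -0.58 (adjusted p = 0.637) in the other direction. It was -0.20 without disomic replicate 2, the highest array, and -0.83 without the dim array. Both comparisons overlapped between the genotypes. In each, 1 of the 18 member probe sets had an unadjusted limma p under 0.05, as did 7.9% (cortex) and 7.68% (hippocampus) of all. limma's F test for a change of the genotype difference with age called 0 of 18 in each region, where it called 0% (cortex), 0.0399% (cerebellum) and 0.00222% (hippocampus) of all, and that for a change with region called 0 of 18 against 0%. Of these 72 tests 2 had an unadjusted p under 0.05, both of *Flt1* (0.0174 in the cortex and, for probe set 1440926_at, 0.00882 in the hippocampus). The other *Flt1* probe sets had an unadjusted p of 0.355 to 0.961 in the cortex and 0.0718 to 0.713 in the hippocampus.

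In the P15 hippocampus 9 of the 10 genes were higher in Ts1Cje, with a median of 0.40 against 0.03 for all genes. Without the pair of arrays that looked exchanged 8 were higher, with a median of 0.27. *Slc2a1*, *Abcb1a* and *Esam* did not overlap. *Slc2a1* was at 9.77, 9.93 and 10.01 in Ts1Cje and at 9.60, 9.49 and 8.77 in disomic mice (0.62 ± 0.24, limma adjusted p = 0.392). *Abcb1a* was at 5.64, 6.15 and 5.99 against 5.16, 5.56 and 5.04 (0.67 ± 0.34, adjusted p = 0.506), and *Esam* at 6.23, 6.14 and 5.95 against 5.64, 5.76 and 5.40 (0.51 ± 0.31, adjusted p = 0.619). In each of the 3 genes the lowest array was disomic replicate 3, the one whose label looked exchanged with the cerebellum, and without the pair the differences were 0.36 for *Slc2a1*, 0.57 for *Abcb1a* and 0.41 for *Esam*. That of *Tek* moved from 0.36 to 0.12 and that of *Pdgfrb* from 0.30 to -0.0039.

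Across the 12 comparisons and 10 genes, all Ts1Cje arrays lay above all disomic arrays in 3 cases, those of the P15 hippocampus, and below in 6. The latter were *Cldn5* and *Tek* in the P1 cerebellum, *Pdgfrb* in the P1 cerebral cortex, *Tek* in the P15 cerebral cortex, *Kdr* in the P84 cerebellum and *Abcb1a* in the P84 hippocampus. How often the genotypes separated in this way over all genes was not counted, so these cases are a description only. Genotypes that did not overlap met no criterion by that alone. The DEG criteria, a different measure, called 0.00222% to 0.494% of all probe sets in these comparisons. That share is no background for the count of separated cases.

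**Figure D3:**
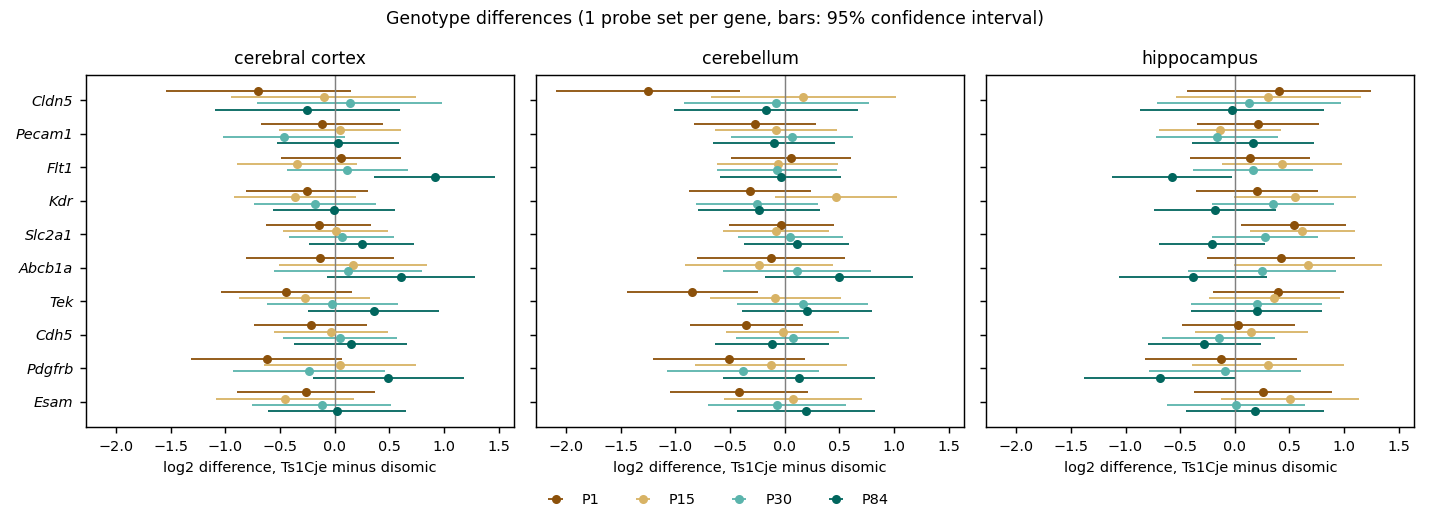
log2 difference of Ts1Cje minus disomic (x axis) for the 10 genes (y axis) in the 3 regions, as points with 95% confidence intervals from limma (n = 3 per genotype), 1 colour per age. No comparison met the DEG criteria, and the points farthest from 0 are *Cldn5* in the P1 cerebellum at -1.25 and *Flt1* in the P84 cerebral cortex at 0.91.

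Of the other vessel, barrier and pathway genes on the lists, *Vegfd* alone was called for genotype. It encodes a ligand of the VEGF receptors and was higher in the Ts1Cje hippocampus at P15, where 1 of the 20 pathway genes and 0.0554% of all probe sets were called. The Ts1Cje arrays were at 3.07, 4.60 and 3.54 and the disomic arrays at 2.35, 2.66 and 1.82. The difference was 1.46 ± 0.26 (2.75-fold, limma adjusted p = 0.00639). The disomic mean of 2.28 lay below the array median, so the size of the difference is a measure against a level not shown to be above background. Without the pair of arrays that looked exchanged the difference was 1.23 (adjusted p = 0.141), without Ts1Cje replicate 2 it was 1.03 (0.424) and without disomic replicate 3 1.23 (0.261), and the criteria were missed each time. In all, the call was lost in 4 of 14 alternatives, not all of which are named here. On the P15 arrays labelled cerebellum, *Vegfd* was at 2.80 on disomic replicate 3 and at 1.63 to 2.04 on the other 5.

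The P1 cerebral cortex was the group in which the members varied most between arrays, and it is given array by array. *Cldn5* was at 6.30, 7.69 and 4.86 on the Ts1Cje arrays 1, 2 and 3 and at 8.12, 7.29 and 5.54 on the disomic arrays 1, 2 and 3. The lowest and the highest array differed by 3.26 log2, against a difference between the genotype means of 0.70 (limma -0.70 ± 0.42, adjusted p = 1.00). The spread within each genotype, 2.83 log2 for Ts1Cje and 2.57 for disomic, was several times the genotype difference, and the genotypes overlapped.

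*Tek*, the angiopoietin receptor, was at 3.70, 4.44 and 2.39 in Ts1Cje and at 4.55, 4.20 and 3.10 in disomic mice. *Esam* was at 4.70, 5.71 and 3.87 against 5.71, 5.18 and 4.18. Both had the same 3 highest arrays as *Cldn5*, which were Ts1Cje 2, disomic 1 and disomic 2. *Kdr* was at 2.58, 3.42 and 2.36 against 3.48, 3.43 and 2.22, and *Abcb1a* at 3.58, 4.26 and 3.82 against 4.77, 4.12 and 3.18. *Cdh5* was at 2.58, 2.87 and 2.17 against 3.57, 2.73 and 1.99. With these, 6 of the 10 genes shared the 3 highest arrays. The share of all genes with this order was not counted, so the count is a description only.

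The other 4 genes had other orders. *Pdgfrb* was at 6.75, 6.98 and 6.62 in Ts1Cje and at 7.69, 7.53 and 6.998 in disomic mice, and was the only member without overlap, by a margin of 6.998 against 6.98. Its difference was -0.62 ± 0.35 (limma adjusted p = 1.00), in a comparison in which 0.0111% of all probe sets were called. *Pecam1* was at 2.80, 3.36 and 2.09 against 3.30, 2.61 and 2.67. *Slc2a1* and *Flt1* varied little, over 0.60 and 0.33 log2 in all, with 8.38, 8.53 and 8.55 against 8.97, 8.56 and 8.37 for *Slc2a1* and 3.53, 3.30 and 3.56 against 3.55, 3.24 and 3.43 for *Flt1*. In all 10 genes the range of the 3 arrays within at least 1 genotype exceeded the difference between the genotype means.

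Of the 10 genes 9 were lower in Ts1Cje at P1 in the cerebral cortex by their means, with a median of -0.24 against 0.02 for all genes. In 8 of the 10 the sign rested on single arrays. Without Ts1Cje replicate 3 *Cldn5*, *Tek*, *Esam* and *Pecam1* had differences of 0.01, 0.12, 0.18 and 0.22. Without disomic replicate 1 *Abcb1a*, *Cdh5*, *Pecam1*, *Esam* and *Slc2a1* had 0.24, 0.18, 0.10, 0.08 and 0.02, and *Abcb1a* had 0.02 without Ts1Cje replicate 1. *Flt1*, positive with all arrays, had -0.03 without disomic replicate 2. *Pdgfrb* and *Kdr* kept their sign with each array left out, at -0.83 to -0.48 and at -0.67 to -0.04.

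Markers of meninges and fibroblasts were high and low on the same arrays. The mean of the 9 markers was 2.74, 6.02 and 3.19 on the Ts1Cje arrays and 6.00, 5.72 and 3.56 on the disomic arrays, and 1, 9 and 3 of the 9 stood above the array median on the former and 9, 9 and 4 on the latter. All 9 had their 3 highest values on Ts1Cje 2, disomic 1 and disomic 2. *Col3a1*, a fibrillar collagen of fibroblasts, ran from 3.05 to 9.04 over the 6 arrays, *Ogn* from 1.79 to 6.81, *Dcn* from 2.26 to 6.96 and *Igf2*, a growth factor made in the leptomeninges, from 6.17 to 9.72. Of 25 other endothelial genes 15 shared those 3 arrays, and of 17 other pericyte and smooth muscle genes 8. Of 7 microglia markers 2 did, of 7 choroid plexus markers 2 and of 5 blood markers 0, and the mean of the blood markers ran only from 2.37 to 2.62. These counts also stand without the share of all genes that had the same 3 highest arrays, which was not counted. The part of meningeal tissue in the spread of the vessel genes was not tested.

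**Figure D4:**
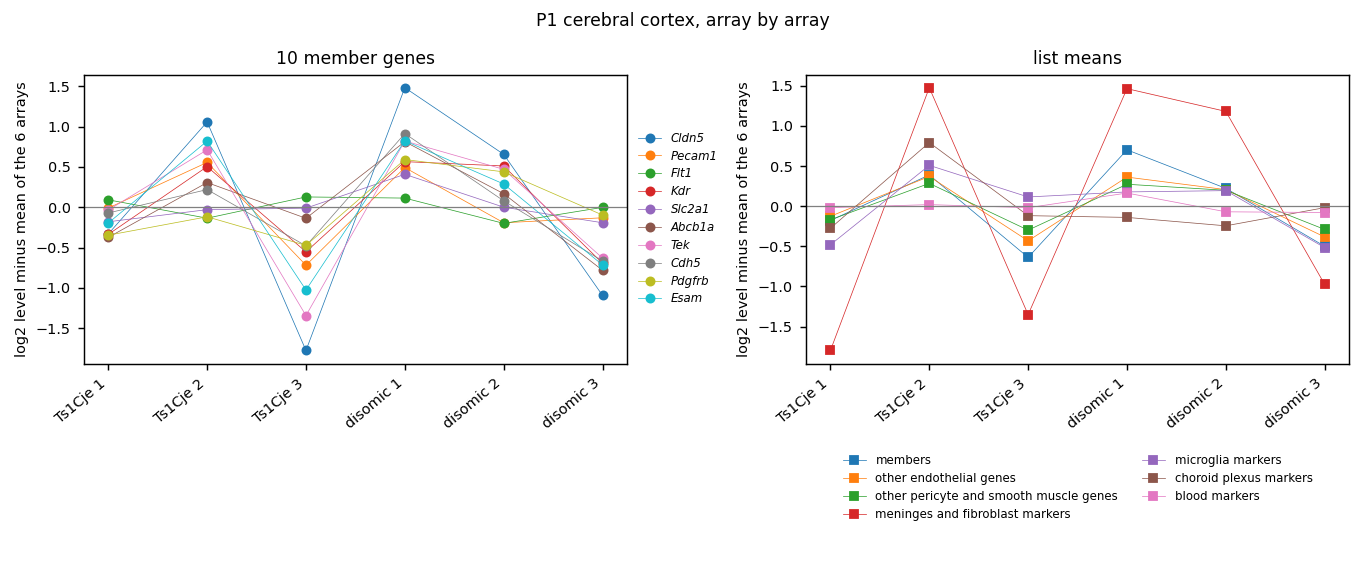
log2 level of the P1 cerebral cortex arrays (x axis) minus the mean of the 6 arrays (y axis), for the 10 genes on the left and for the mean of each list on the right, with thin lines that only join the values of a gene or list. *Cldn5*, *Esam* and *Tek* were high on Ts1Cje 2, disomic 1 and disomic 2, as was the mean of the meninges and fibroblast markers, which spanned 2.74 to 6.02.

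The spread of *Cldn5*, and the median spread of the 10 genes, was larger at P1 than at later ages. Not every gene followed. The SD of *Flt1* over the 6 cortical arrays was 0.14 at P1 and 0.29 to 0.68 later. The SD of *Cldn5* within genotypes was 1.37 log2 in the P1 cerebral cortex, larger than that of 99.8% of all genes there, and 0.23, 0.15 and 0.35 at P15, P30 and P84. In the P1 cerebellum and hippocampus it was 0.63 and 0.71. The median SD of the 10 genes in the P1 cerebral cortex was 0.61, where the median of all genes was 0.20, and from P15 on it was 0.24 to 0.35 in the 3 regions. At P1 this median was 0.37 in the cerebellum, against 0.32 for all genes, and 0.40 in the hippocampus, against 0.20. The P1 hippocampus gave a different order from the P1 cerebral cortex, with *Cldn5* at 7.19, 7.22 and 7.69 in Ts1Cje and at 7.53, 7.51 and 5.85 in disomic mice, and 9 of the 10 genes higher in Ts1Cje by their means (median 0.24). The low disomic replicate 3 array had a meninges marker mean of 5.04, against 4.86 to 6.07 on the other arrays of that group and age.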

How the data were processed

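The authors deposited log2 expression values made with gcRMA (GCRMA in the submitters' processing notes, version not given in the sources used here) from Affymetrix Mouse430_2 arrays, with a background correction by probe base composition and a normalization of the arrays to one another. They were used as deposited, without a filter. The scanner files were not used here, arrays give no count of molecules, and 3 arrays per group limit the precision.

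Of the 45101 probe sets, 34958 had 1 symbol, 932 several and 9211 none, and 34754 were matched through gene identifiers to the gene table of GRCm38.p6. Of the listed marker genes, 11 had no such probe set. A linear model of group means was fitted to all 72 arrays (R 4.3.3, limma 3.58.1; 24 means, 48 residual and 51.27 total degrees of freedom), and the fit was tested on simulated data. Arrays of a group are separate mice per the methods. All members are named, and of the lists the counts, genes among the 3 of largest t per comparison and any gene called for genotype, with markers of the P1 cortex arrays beside them. The members and lists were chosen with earlier results of these data known. Promoter motifs were counted in RefSeq sequences with Python 3.11.15. Alternatives were the replicate block, another prior, quantile normalization, a filter at a mean of 5, the animal as a random block, other adjustments, a fit per region, and arrays left out.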

Additional observations from a re-analysis of the deposited data

Results flagged for a closer look

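*Abcb1a* had genotype differences of opposite sign at 2 ages of the hippocampus. At P15 all 3 Ts1Cje arrays lay above all 3 disomic arrays (0.67), and at P84 all lay below (-0.38, with 5.81, 5.92 and 5.71 in Ts1Cje and 5.97, 6.61 and 5.98 in disomic mice). The contrast between these 2 ages alone was not tested. The F test for a change of the difference over the 4 ages in the hippocampus gave an adjusted p of 1.00 and an unadjusted p of 0.165 for this probe set, and the second *Abcb1a* probe set an unadjusted p of 0.918. Without the pair of P15 arrays that looked exchanged the P15 difference was 0.57, and without the 3 dim arrays the P84 difference was -0.48. Without disomic replicate 2, the highest P84 array, the P84 difference was -0.17.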

How the results depend on the processing

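The genotype counts of the 10 genes remained at 0 in the 12 comparisons, in the 3 averages over ages and in the F tests under every alternative run. Of the 27 comparisons the counts of called probe sets moved by over 1.5 times only at the age and region steps below. For P15 minus P1 in the cerebral cortex (11), the filter at a mean of 5 gave 5, with 7 of the 18 probe sets tested, and leaving out 1 replicate gave 8 to 10. In the cerebellum (5) the filter gave 2, the fit without the 3 dim arrays 3, that without the 2 exchanged P15 arrays 2 and leaving out 1 replicate 1 to 6. In the hippocampus (6) the filter gave 2, and leaving out 1 replicate 4 to 7. For P30 minus P15 in the cerebellum (2), leaving out 1 replicate gave 0 to 3. In the hippocampus (0), *Esam* alone was called (1) with quantile normalization, without the 3 dim arrays and with the replicate block, and leaving out 1 replicate gave 0 to 1. Between cerebellum and cerebral cortex (1) the filter, which removes the called probe set, gave 0, and leaving out 1 replicate 0 to 1. Between cerebellum and hippocampus (0) the fit without the 2 exchanged P15 arrays gave 2, and leaving out 1 replicate 0 to 1. Where no construction shows it, the cause was not tested. Of the 10 genotype differences of the P1 cerebral cortex 8 turned their sign when 1 replicate was left out, with ranges of -1.42 to 0.0148 (*Cldn5*), -0.42 to 0.22 (*Pecam1*), -0.0278 to 0.14 (*Flt1*), -0.28 to 0.0219 (*Slc2a1*), -0.56 to 0.24 (*Abcb1a*), -0.91 to 0.12 (*Tek*), -0.61 to 0.18 (*Cdh5*) and -0.74 to 0.18 (*Esam*). In the P15 hippocampus *Pdgfrb* turned to -0.0039 without the 2 exchanged arrays, and with 1 replicate left out it ran from -0.0039 to 0.62 and *Pecam1* from -0.36 to 0.11.

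The labels tie no replicate number to a litter or day. Over 36 pairs of the same number, region and age the deviations from the group means correlated at -0.33 to 0.82 (median 0.20), 24 of them over 0.1. All 3 pairs were over 0.1 in 3 of the 12 region and age combinations, the cerebral cortex at P1, P30 and P84, so the numbers were not taken to pair the samples as a whole. With the replicate block the genotype counts stayed at 0 and the P30 minus P15 hippocampus count was 1, and 8 calls were added in all. These were *Kdr* (0.67, adjusted p = 0.0007) and *Esam* (0.85, 0.000229) in P15 minus P1 cerebral cortex, *Esam* (0.84, 0.000274) and 2 *Flt1* probe sets (0.94 and 0.41) in P15 minus P1 cerebellum, 1 *Flt1* probe set (0.55) in P15 minus P1 hippocampus, *Kdr* (-0.76, 0.000788) in P30 minus P15 cerebellum and *Esam* (-0.81, 0.00585) in P30 minus P15 hippocampus. *Flt1* (1440926_at) in P15 minus P1 cerebellum (0.73) missed the criteria. The 3 regions came from the same mice per the methods, and with equal numbers read as 1 mouse the consensus correlation of the animal as a random block was 0.09.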
